A study of Mus musculus with 6 samples.

Results

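The 40 genes described here encode the working parts of the lysosome other than its proton pump. The list goes by function, with no threshold on expression or on the difference between the ages: the cathepsins and other acid proteases, the enzymes that take apart sugar chains, sulfated sugars and lipids, the main proteins of the lysosomal membrane, progranulin, and the transcription factor TFEB. All 40 were present among the 24421 gene symbols of the deposited count table, and all 40 were among the 14612 genes that passed the filter on low counts. RNA had been sequenced from liver endothelial cells (ECs) sorted as CD31+CD45− cells, so that every sample was selected for an endothelial surface protein and against the surface protein of leukocytes. The study compared young with aged ECs to find transcriptional differences that come with age. Both groups were wild-type (WT) C57BL/6J mice, female according to the methods, and none carried a transgene or received a treatment in the labels. The young group was 3 samples from 10-week-old mice, and the aged group was 1 sample each at 127, 131 and 136 weeks, named here by those weeks. The methods call the samples independent, and how many animals went into each sample is not given in the sources used here.

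Lysosomes are acidic organelles in which material taken up by endocytosis, phagocytosis or autophagy is broken down. Their hydrolases are made in the endoplasmic reticulum, tagged with mannose 6-phosphate and delivered by receptors, and many of the genes are controlled together by TFEB and its relatives, which bind an E-box-like motif in the promoters. Sinusoidal ECs of the liver are scavenger cells that clear waste macromolecules from blood through the stabilin, mannose and Fc receptors and degrade them in lysosomes, and macrophages such as Kupffer cells are also rich in lysosomes.

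Promoter sequences are shown for the members whose values or motifs the results below turn on. The RefSeq windows (build GRCm38.p6, 250 bases before to 50 bases after a gene's start) covered 36 of the 40 members, and none was used for Ctsb, Asah1, Ctsh and Npc1. The letters searched on both strands were CACGTG, the E-box core, then TCACGTGA, and then the full TFEB consensus of 10 bases, which has GT before and AC after the core, so that each longer motif contains CACGTG. A core of interferon-response elements, GAAA and again GAAA after any 2 bases, was searched as well. The capitals mark those letters.
Lamp1, chr8:13159071-13159160, + strand: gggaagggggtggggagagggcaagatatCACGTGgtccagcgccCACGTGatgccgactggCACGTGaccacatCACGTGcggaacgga
Glb1, chr9:114401003-114401062, + strand: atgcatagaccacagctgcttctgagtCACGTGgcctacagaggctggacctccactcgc
Sgsh, chr11:119355511-119355570, − strand: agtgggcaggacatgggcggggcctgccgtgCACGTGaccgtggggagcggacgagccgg
Lgmn, chr12:102439109-102439168, − strand: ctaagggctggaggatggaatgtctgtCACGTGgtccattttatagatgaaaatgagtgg
Ctsl, chr13:64370711-64370770, − strand: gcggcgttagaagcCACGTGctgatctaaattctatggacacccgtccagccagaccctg
Ctsd, chr7:142387893-142387952, − strand: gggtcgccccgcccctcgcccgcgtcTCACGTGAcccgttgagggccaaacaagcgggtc
Ctss, chr3:95526726-95526785, + strand: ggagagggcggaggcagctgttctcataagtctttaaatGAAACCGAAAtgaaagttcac
The Lamp1 window held 4 copies of CACGTG, 61, 45, 28 and 15 bases before the start. In Glb1, Lgmn and Sgsh 1 copy lay 48, 49 and 29 bases before it, and in Ctsl 236 bases before it.

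CACGTG was found in the promoter of 12 of 36 members (33.3%), namely Arsa, Ctsa, Ctsd, Ctsf, Ctsl, Gaa, Gla, Glb1, Lamp1, Lgmn, Naglu and Sgsh. It was found in 11.2% of the 11042 tested genes with a promoter and in 7.15% of all 32851 windows. TCACGTGA was in Ctsa, Ctsd and Gla (8.33% of members and 2.00% of tested genes), and the full consensus was in 0 of 36 members and 0.734% of tested genes. The interferon-response core was in Ctso, Ctss and Lamp1, 8.33% of members beside 3.86% of tested genes. A match of letters is a description of the window and not a binding site.

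Total counts per sample ran from 23001556 to 31651817, and the 40 members took 1.28% to 1.68% of them. The lowest count of any member in any sample was 184 (Ctss, young replicate 2), so no member was near the floor of 3 counts, which was 0.0948 to 0.130 CPM (counts scaled to a standard library size) and covers counting error only. No same-age samples were alike enough to be a library deposited again (smallest chi-square per degree of freedom 20.2). The ribosomal RNA symbols Lars2 and Rn45s took 1.29% and 0.960% of counts in young replicate 3 and the 127-week sample and 4.68% to 5.53% in the other 4, so the libraries form clusters that cut across age, and differences within each cluster are given beside the main results. The endothelial genes Pecam1, Cdh5 and Kdr were at 241 CPM or more in every sample. Genes of other cell types were low but uneven: the summed CPM of 8 pan-leukocyte genes was 100.2 to 106 in the young samples and 114, 102 and 374 at 127, 131 and 136 weeks, most of it from Lcp1 in the young samples. Without Lcp1 the sum was 15.5 to 27.1 in the young samples and 54.9, 18.5 and 217 in the aged samples. The summed CPM of 13 Kupffer cell and macrophage genes was 129 to 143 in the young samples and 243, 41.4 and 560.2 in the aged samples.

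Levels of different members can be compared only per length, so the deposited FPKM values (fragments per kilobase of exon, scaled to the depth of each library) were used for that. Ctsd, which encodes the aspartic protease cathepsin D, had the highest level in young ECs at 949 ± 42.9 FPKM (SD, n = 3), with 908, 945 and 993 in the 3 young samples and 923, 1015 and 1082 at 127, 131 and 136 weeks. Ctsl, the cysteine protease cathepsin L, followed at 813 ± 170.2 FPKM, Psap, the precursor of the saposins that present lipids to their hydrolases, at 752 ± 127, and the membrane glycoproteins Lamp1 and Lamp2 at 694 ± 62.1 and 571 ± 17.2. Each of these genes was above 99% of the tested genes that have an FPKM value. The young ranges of Ctsd, Ctsl, Psap and Lamp1 overlapped each with the next, and Lamp2 lay below Lamp1 in all young samples.

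At the other end were Galc, the galactocerebrosidase, at 5.84 ± 0.94 FPKM, Npc1, the membrane transporter that exports cholesterol from lysosomes, at 5.17 ± 0.61, and Ctsc, the dipeptidyl peptidase cathepsin C, at 4.52 ± 0.72. Over all 40 genes in order of young level, 29 of the 39 neighbouring pairs had overlapping ranges, so the order is firm only between blocks. Ranges were apart, for example, between Grn, at 316 FPKM or more in the young samples, and Hexa, at 216 or less, and between Sgsh and Tfeb. Tfeb, the transcription factor, was at 9.63 FPKM, and Ctss and Ctsk, which come up below, were at 8.48 and 8.24, far under the cathepsins B, D and L.

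**Figure D1:**
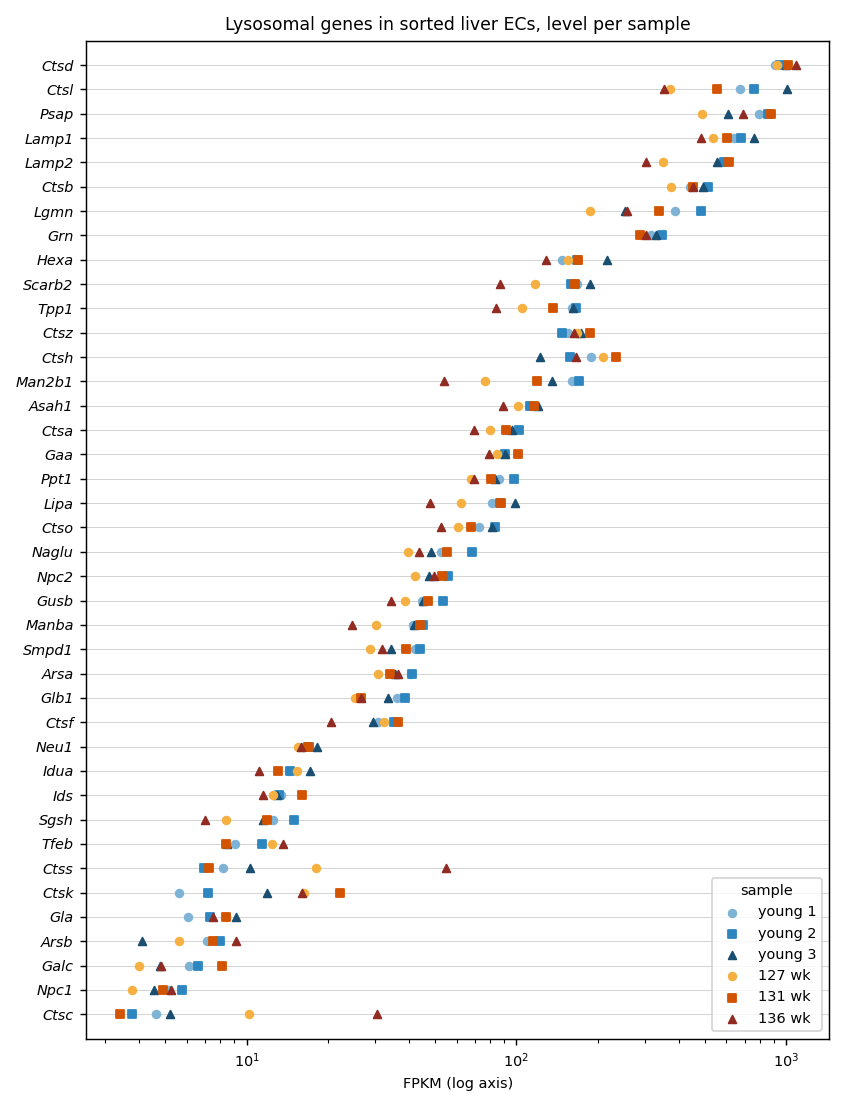
FPKM of the 40 lysosomal genes (log axis) in each of the 3 young and 3 aged samples, ordered by the mean of the young samples. Ctsd lies at the top near 949 FPKM and Ctsc at the bottom at 4.52 FPKM in young ECs, with Ctss and Ctsc spread far to the right at 136 weeks.

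Most of the lysosomal genes lay somewhat lower in aged ECs, and a few cathepsins lay higher. Of the 40 members, 30 (75%) had a log2 fold change below 0, beside 48.9% of all genes tested and 57.7% of the 7205 genes expressed at least as highly as the lowest member. The median log2 fold change of the members was −0.18, beside 0.0098 over all genes tested and −0.048 over those 7205. No single change passed the test: by edgeR's quasi-likelihood test with Benjamini-Hochberg adjustment, 0 of 40 members and 0 of 14612 genes (0%) reached an adjusted p of 0.05, and the smallest adjusted p of any gene was 0.0725. By DESeq2, 484 genes were called higher (3.31%) and 155 lower (1.06%), and among the members Ctsk was called higher and Ctsl lower. At an unadjusted p below 0.05, edgeR had 3 members higher (Ctsk, Ctss and Ctsc), beside 8.25% of all genes, and 6 lower (Ctsl, Glb1, Man2b1, Tpp1, Ctso and Sgsh), beside 4.23% of all genes.

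A further description is whether the ages overlap. All 3 aged samples were below all 3 young samples for 8 members (20% of them), Ctsl, Man2b1, Tpp1, Glb1, Ctso, Lamp1, Ppt1 and Grn, beside 8.33% of all genes tested and 11.4% of the 7205. All aged samples were above all young samples for 1 member, Ctsk, beside 9.62% of all genes. Without the 131-week sample, 21 members were lower without overlap (beside 16.0% of all genes) and 4 were higher (beside 18.5%). Without young replicate 3, 13 members were lower (beside 15.9%) and 3 higher (beside 17.0%). The share of all genes that do not overlap also rises when a sample is left out.

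**Figure D2:**
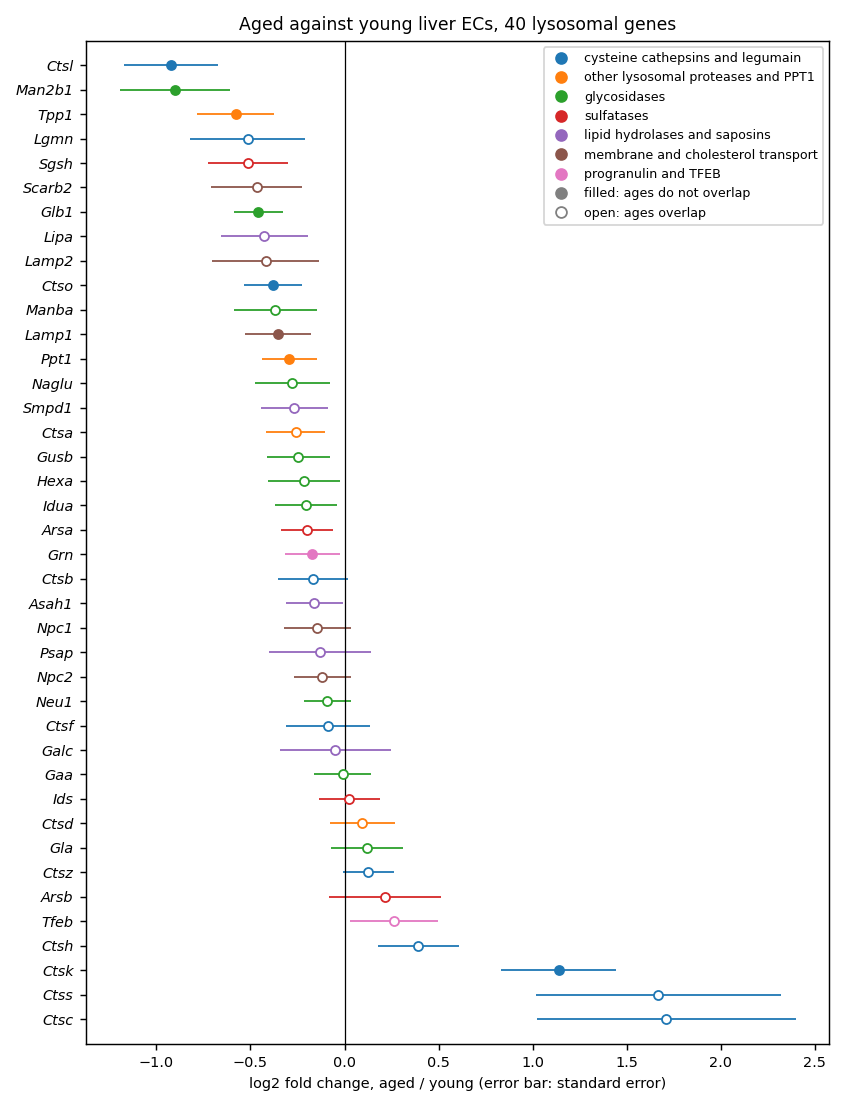
Log2 fold change of each lysosomal gene in aged against young ECs from edgeR, with its standard error, coloured by role and filled where the ages did not overlap. The values run from −0.92 (Ctsl) to 1.71 (Ctsc), and 30 of 40 lie left of 0.

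The cysteine cathepsins and legumain were the group that split. Of 10 genes, 5 had a value above 0 and 5 below, with a median of 0.02 on the log2 scale. Ctsl, at chr13:64464522-64471614 of mm9, had 1236, 1397 and 1796 CPM in the young samples and 673, 1019 and 646 at 127, 131 and 136 weeks. All aged samples were below all young ones, with the 131-week sample nearest to them. The aged mean was 52.8% of the young mean (log2 fold change −0.92 ± 0.25 SE, adjusted p = 0.256 by edgeR, 0.0128 by DESeq2). The difference in log2(CPM + 1) was −0.69 among the libraries with more Lars2 and Rn45s reads. Between young replicate 3 and the 127-week sample, 1 library each, it was −1.42.

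Ctso, which encodes cathepsin O, had 244, 282 and 268 CPM in young ECs and 202, 231 and 178 at 127, 131 and 136 weeks, again with no overlap and the 131-week sample nearest (−0.38 ± 0.15). Lgmn, the asparaginyl endopeptidase that processes other cathepsins, had 677, 845 and 437 CPM in young ECs against 327, 593 and 449.5 in aged ECs. Its young samples were too far apart for the ages to separate (−0.52 ± 0.31, edgeR adjusted p = 0.550). Ctsb, the most abundant of the group by counts, differed by −0.17 ± 0.19 and Ctsf by −0.09 ± 0.22, both within their errors. Ctsz at 0.13 ± 0.14 and Ctsh at 0.39 ± 0.22 lay above 0 with overlapping ages.

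Ctsk encodes cathepsin K, a collagen-degrading protease best known from osteoclasts. It had 8.11, 10.2 and 17.1 CPM in young ECs and 23.4, 31.8 and 22.9 at 127, 131 and 136 weeks. All aged samples were above all young samples, and the 131-week sample was the highest. The aged mean was 220.3% of the young mean (log2 fold change 1.14 ± 0.31, adjusted p = 0.256 by edgeR, 0.0234 by DESeq2). The difference was 1.47 within the cluster of libraries with more Lars2 and Rn45s reads and 0.43 between young replicate 3 and the 127-week sample.

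Ctss encodes cathepsin S, the protease that trims the invariant chain of MHC class II in antigen-presenting cells. It had 9.75, 8.30 and 12.0 CPM in young ECs and 21.4, 8.71 and 65.5 at 127, 131 and 136 weeks. The 136-week sample was far above the rest, the 127-week sample was also above the young samples, and the 131-week sample lay among them. The fitted log2 fold change was 1.67 ± 0.65 (edgeR adjusted p = 0.373), and it was 0.59 without the 136-week sample.

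Ctsc, which encodes the cathepsin that activates granule proteases of leukocytes, had the same order among the aged samples. It had 10.9, 8.84 and 12.1 CPM in young ECs and 23.8, 8.05 and 72.4 at 127, 131 and 136 weeks, so the 136-week sample was again the highest and the 131-week sample the lowest of all 6. The log2 fold change was 1.71 ± 0.69 (edgeR adjusted p = 0.378), and it was 0.59 without the 136-week sample. Neither gene reached an unadjusted edgeR p of 0.05 without that sample, or without any 1 of the young samples.

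Most leukocyte and macrophage genes stood in the same order among the aged samples as Ctss and Ctsc, highest at 136 and lowest at 131 weeks. This was so for 7 of 8 pan-leukocyte genes, all but Lcp1, and for 11 of 13 Kupffer cell and macrophage genes, all but Clec4f and Marco. Ptprc, the gene of CD45, had 1.56, 1.17 and 1.70 CPM in young ECs and 7.56, 1.28 and 25.6 at 127, 131 and 136 weeks. All 8 pan-leukocyte genes had a fold change above 0 (median log2 2.26), as had 9 of 13 Kupffer cell and macrophage genes (0.78). Of 6 dendritic cell genes 5 were above 0 (0.79), but only 2 of the 6 stood in that order. Among the 5 was Siglech, which passed the filter through the 136-week sample alone (13 counts), so its difference is not read as a result. Lyz2, the lysozyme of myeloid cells, was the furthest above 0 of the 13 macrophage genes (log2 2.55). It had 30.4, 15.2 and 31.0 CPM in young ECs and 103, 19.4 and 327 in aged ECs. The 4 genes below 0 were Marco (−4.03), C1qb (−0.88), C1qa (−0.11) and Cd5l (−0.05), and C1qc was at 0.02. Marco had 11.4 CPM in young replicate 1 and at most 0.406 in the other young samples. The Kupffer cell genes Marco and Timd4 had 0 CPM in the 127-week and the 131-week sample, respectively. The summed CPM was 0.978 to 1.79 in young and 0.856 to 23.5 in aged samples for T and NK cell genes, 0.946 to 1.23 and 0.739 to 8.49 for B cell genes, and 9.84 to 23.9 and 9.33 to 15.3 for dendritic cell genes. Their part in the values of Ctss and Ctsc was not tested. In bulk samples, fewer cells of a type and less RNA per cell cannot be told apart.

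Ctsk did not stand in that order: its highest value, 31.8 CPM, was in the 131-week sample, where the macrophage genes summed to 41.4 CPM, the lowest of the 6 samples. Ctsk and Ctss are neighbours on chromosome 3, Ctsk at chr3:95303208-95313284 and Ctss at chr3:95330708-95360325 of mm9, both on the + strand and 17423 bases apart. The Ctss promoter held the interferon-response core shown above, and those of Ctsk and Ctsc held none of the motifs searched.

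**Figure D3:**
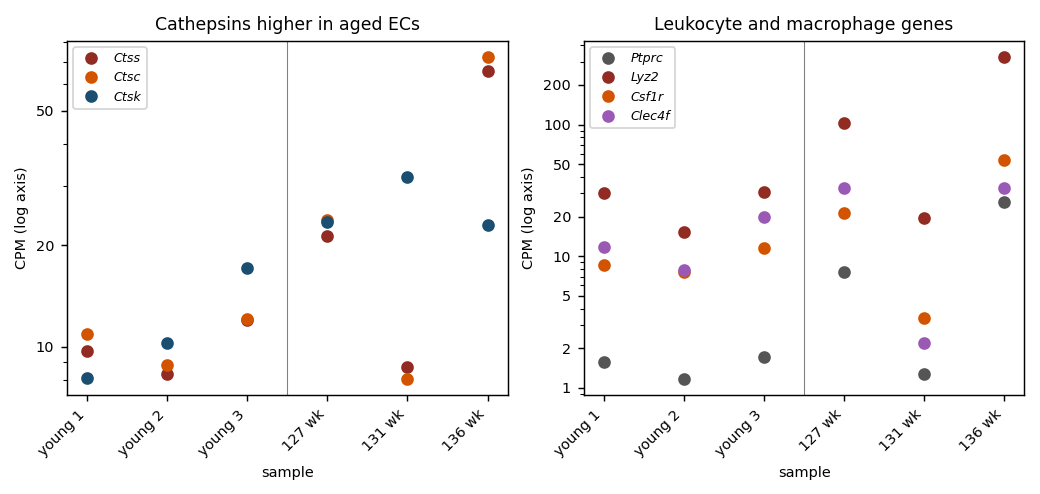
CPM (log axis) of Ctss, Ctsc and Ctsk (left) and of the leukocyte gene Ptprc and the macrophage genes Lyz2, Csf1r and Clec4f (right) in each sample, with a line between the ages. Ctss and Ctsc reach 65.5 and 72.4 CPM at 136 weeks, where Ptprc and Lyz2 are also highest, and Ctsk is highest at 131 weeks.

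Among the other proteases, Tpp1, tripeptidyl peptidase 1, had 551, 571 and 545 CPM in young ECs and 358, 470 and 288 at 127, 131 and 136 weeks. The young samples were close together and all aged samples were below them (−0.58 ± 0.20, edgeR adjusted p = 0.338). Ppt1, which removes palmitate from proteins, had 205, 232 and 194 CPM against 159, 191 and 166, without overlap but with only a narrow gap at 131 weeks (−0.29 ± 0.15). Ctsa, the carboxypeptidase that protects neuraminidase and β-galactosidase, differed by −0.26 ± 0.16. Ctsd, the most abundant member, lay at 0.09 ± 0.17 and its ages overlapped. Over these 4 genes 3 were below 0, with a median of −0.28.

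Of the 10 glycosidases, 9 had a value below 0, with a median of −0.23. Man2b1, the lysosomal α-mannosidase that trims N-glycans, had 689, 735 and 575 CPM in young ECs and 325.5, 512 and 233 at 127, 131 and 136 weeks. No aged sample reached the young range, and the aged mean was 53.6% of the young mean (−0.90 ± 0.29, edgeR adjusted p = 0.313). Glb1, the acid β-galactosidase whose activity is used as a stain for senescent cells, had 78.3, 84.0 and 70.5 CPM in young ECs and 53.9, 57.8 and 57.7 in aged ECs. Among the 6 lower members with an unadjusted p below 0.05 it was the one in which the 131-week sample lay level with another aged sample and not nearer to the young ones, and its error was the smallest of the 6 (−0.46 ± 0.13, edgeR adjusted p = 0.263).

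The remaining glycosidases lay closer to 0 or had wider errors, and in all of them the ages overlapped. Manba, the β-mannosidase, was at −0.37 ± 0.22, Naglu, which removes N-acetylglucosamine from heparan sulfate, at −0.28 ± 0.20, and Gusb, the β-glucuronidase, at −0.25 ± 0.17. Hexa, the α subunit of hexosaminidase A, was at −0.21 ± 0.19, Idua, the iduronidase of heparan and dermatan sulfate, at −0.20 ± 0.16, and Neu1, the sialidase, at −0.09 ± 0.13. Gaa, the acid α-glucosidase that degrades glycogen, was at −0.01 ± 0.15, and Gla, the α-galactosidase, at 0.12 ± 0.19.

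The sulfatases had no common direction, with 2 genes above 0, 2 below and a median of −0.09. Sgsh, the sulfamidase of heparan sulfate, had 46.6, 54.0 and 41.4 CPM in young ECs and 31.1, 42.4 and 25.8 at 127, 131 and 136 weeks. The 131-week sample lay within the young range and the other aged samples below it (−0.51 ± 0.21, edgeR adjusted p = 0.388). Arsa, which acts on sulfatide, was at −0.20 ± 0.14, Ids, the iduronate sulfatase, at 0.03 ± 0.16, and Arsb, which acts on dermatan and chondroitin sulfate, at 0.21 ± 0.30. In the annotation of mm9, 21.6% of the exon bases of Sgsh and 45.3% of those of Arsb overlap another gene on the opposite strand (Card14 and Gm17447), and whether counting used the strand is not given in the sources used here. Overlaps with genes on the opposite strand also touched Arsa (18.8%), Ctsa (17.4%), Ctsb (16.2%), Lamp1 (7.85%) and Idua (6.30%), and 6.47% of the exon bases of Ctsd overlap a gene on its own strand. Smaller overlaps with the opposite strand touched Ppt1 (3.51%), Npc1 (2.63%) and Ctsz (0.694%). How many reads of these genes the overlaps affect was not measured.

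All 5 lipid hydrolases and saposins had a value below 0 (median −0.16), and in all 5 the ages overlapped. Lipa, the acid lipase that frees cholesterol from its esters, was at −0.43 ± 0.23, Smpd1, the acid sphingomyelinase, at −0.27 ± 0.18, and Asah1, the acid ceramidase, at −0.16 ± 0.15. Psap had 1988, 2129 and 1490.0 CPM in young ECs and 1196, 2192 and 1729 at 127, 131 and 136 weeks, so that the 131-week sample was the highest of all 6 and the 127-week sample the lowest (−0.13 ± 0.27). Galc had 23.3, 24.95 and 17.8 CPM in young ECs and 14.96, 30.7 and 18.1 in aged ECs, likewise highest at 131 weeks and lowest at 127 weeks (−0.05 ± 0.29).

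All 5 genes of the membrane and of cholesterol transport were also below 0, with the lowest median of any role group, −0.35. Lamp1, a heavily glycosylated protein that lines the lysosomal membrane, had 1362, 1444 and 1582 CPM in young ECs and 1121, 1283 and 1029 at 127, 131 and 136 weeks, without overlap (−0.35 ± 0.18, edgeR adjusted p = 0.468). Lamp2, its relative with roles in the fusion of autophagosomes and in chaperone-mediated autophagy, had 1266, 1321 and 1191 CPM against 741, 1385 and 699. Its 131-week sample was the highest of all 6 and the other aged samples were far below the young ones (−0.42 ± 0.29).

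Scarb2, a membrane protein that also serves as a sorting receptor for lysosomal cargo, showed the same split, with 338, 317 and 366 CPM in young ECs and 233, 332 and 174 in aged ECs (−0.47 ± 0.24). Npc1 had 25.7, 29.0 and 23.4 CPM against 19.7, 24.7 and 26.3 (−0.14 ± 0.18), and Npc2, the soluble partner that hands cholesterol to it, was at −0.12 ± 0.15. Both sets of ages overlapped.

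Grn, which encodes progranulin, a secreted protein that is processed in lysosomes, had 698, 767 and 712 CPM in young ECs and 626, 636 and 672 at 127, 131 and 136 weeks. The aged samples were all below the young ones, by a small margin (−0.17 ± 0.15, edgeR adjusted p = 0.704). Tfeb itself had 19.9, 25.1 and 17.9 CPM in young ECs and 26.96, 18.4 and 30.1 in aged ECs, with the 131-week sample within the young range and the other aged samples above it (0.26 ± 0.23, edgeR adjusted p = 0.716). Of the 12 members with CACGTG in the promoter 10 had a value below 0 (median −0.27), and of the 24 with a promoter and without it 17 did (median −0.19). For the longer TCACGTGA, 1 of the 3 members with it was below 0 (median 0.094), and 26 of the 33 without it were (median −0.21). Over all tested genes with a promoter the medians were 0.0038 with and 0.0072 without CACGTG.

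**Figure D4:**
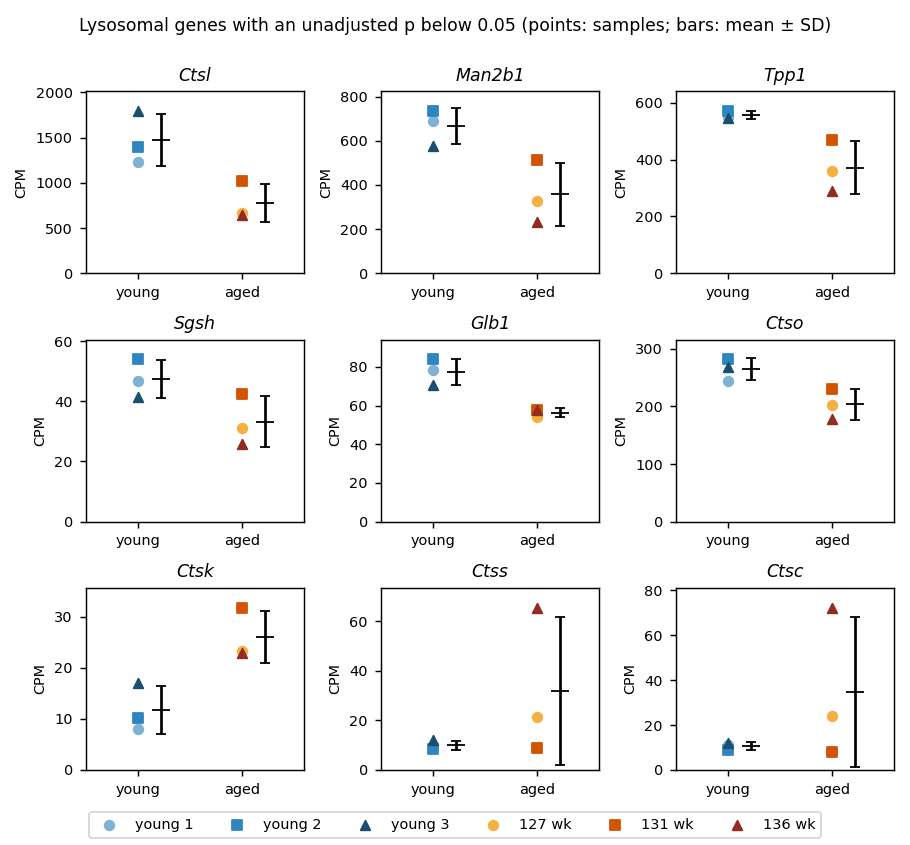
CPM of the 9 lysosomal genes with an unadjusted p below 0.05, in each sample, with the mean ± SD of each age (n = 3). Ctsl, Man2b1, Tpp1, Glb1 and Ctso are lower in all aged samples, Sgsh is lower in all but the 131-week sample, and Ctsk is higher in all aged samples, while Ctss and Ctsc are above the young samples at 127 and 136 weeks.

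The aged samples did not behave alike. At 127 weeks 28 of 40 members (70%) were below all 3 young samples, beside 27.4% of all genes tested, and 5 were above all of them, beside 30.5%. At 136 weeks 24 members (60%) were below, beside 32% of all genes, and 6 above, beside 34.1%. At 131 weeks 11 members (27.5%) were below, beside 25.1%, and 10 were above, beside 26%, so that in this sample the members' shares were near those of all genes. The median difference of the members from the young mean, in log2(CPM + 1), was −0.33 at 127 weeks, −0.020 at 131 weeks and −0.33 at 136 weeks. The summed CPM of the members was 16075, 17430.5 and 16309 in young ECs and 12185, 16183 and 13085 in aged ECs.

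The 127-week sample belongs to the library cluster with fewer Lars2 and Rn45s reads, and the other aged samples to the cluster with more. The part of the clusters in the differences between the aged samples was not tested. The median difference of the members was −0.18 among the 4 libraries with more Lars2 and Rn45s reads. It was −0.24 between young replicate 3 and the 127-week sample. Counting each gene's lowest sample, 18 of the 40 members were lowest at 136 weeks, 13 at 127 weeks and 1 at 131 weeks, and the young samples held the lowest value of 8 in all (3, 2 and 3). The highest value was in young replicate 2 for 17 members, in young replicate 3 for 9, at 131 weeks for 9 and at 136 weeks for 5, and for no member in young replicate 1 or at 127 weeks.

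**Figure D5:**
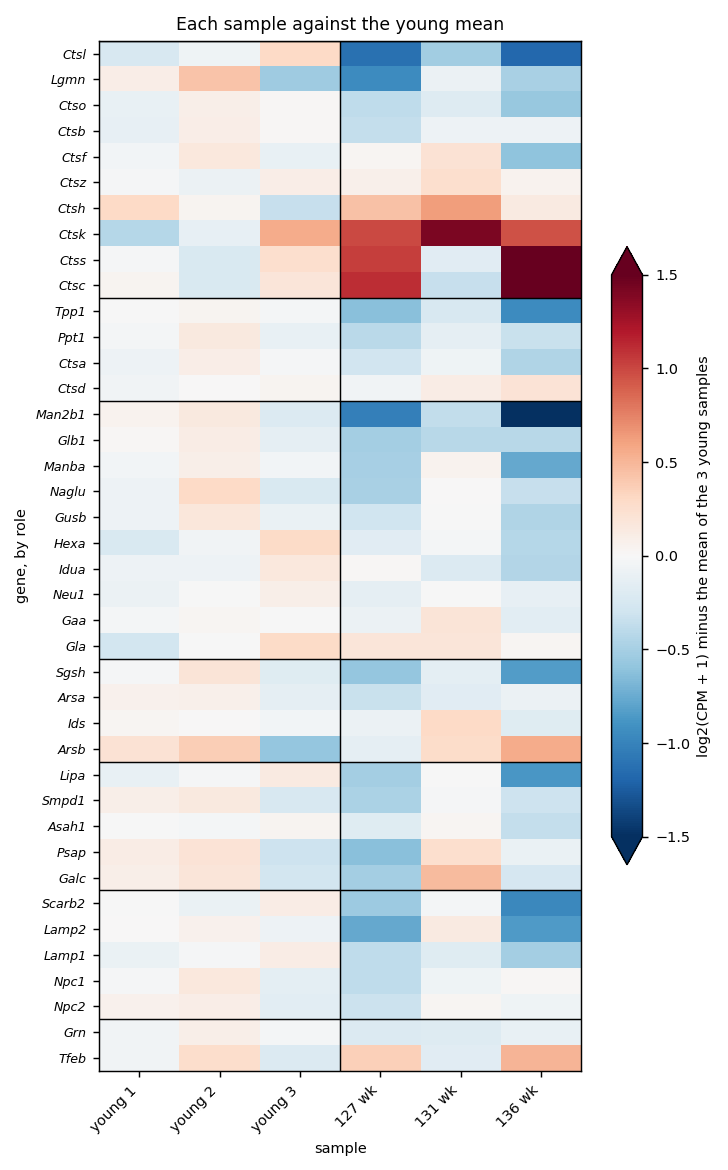
Difference of each sample from the mean of the young samples in log2(CPM + 1) for the 40 genes, grouped by role, with blue for lower and red for higher. The columns for 127 and 136 weeks (medians −0.33 and −0.33) are mostly blue apart from genes such as Ctsk, Ctss, Ctsc, Ctsh and Tfeb, and the column for 131 weeks (median −0.020) is mixed.

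Genes of liver ECs differed as well. Of 11 liver endothelial genes 9 had a value below 0 (median −0.65), and 7 were lower without overlap (63.6%, beside 8.33% of all genes tested). Lower at an unadjusted edgeR p below 0.05 were 6 of them, beside 4.23% of all genes. Their summed CPM was 21269 to 23329 in young ECs and 11590, 16427 and 11085 at 127, 131 and 136 weeks. Stab2, the scavenger receptor stabilin-2 of sinusoidal ECs, had 2901, 3198 and 3021 CPM in young ECs and 504, 1759 and 542 in aged ECs, while the general endothelial gene Pecam1 was at 0.01 ± 0.18 on the log2 scale. For 7 of the 11 genes, Stab2 among them, the highest of the aged values was at 131 weeks, as it was for Ctsl, Man2b1 and Tpp1. Lyve1, another sinusoidal marker, went the other way, with 391, 537 and 670.3 CPM in young ECs and 660.4, 223 and 1506 in aged ECs, and Pecam1, Cdh5 and Tek were not highest at 131 weeks either. No endothelial gene of the list was at 0 in any sample, and the part of sinusoidal genes in the lysosomal values was not tested.

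Of the remaining cell type lists, hepatocyte genes were below 0 in 8 of 9 (median −0.84). Without overlap 4 of them were lower (44.4%, beside 8.33% of all genes tested). Their summed CPM was 237 to 314 in young ECs and 278, 184 and 319 at 127, 131 and 136 weeks, and the largest term was Trf, the only one above 0, with 116 to 172 CPM in young ECs and 185, 105 and 243 in aged ECs. The median difference of the 9 genes from the young mean in log2(CPM + 1) was −0.31 to 0.34 in young ECs and −0.44, −1.07 and −0.92 in aged ECs. Stellate and mural cell genes were above 0 in 6 of 12 (median −0.08), with sums of 158 to 538 in young ECs and 471, 248 and 766 in aged ECs. The largest term was Reln, with 69.9 to 181 CPM in young ECs and 351, 109 and 495 in aged ECs. For both lists, the sum was highest at 136 weeks and lowest at 131 weeks among the aged samples. Gene by gene, only 2 of 9 hepatocyte genes and 3 of 12 stellate and mural cell genes stood in that order.

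Lysosomal genes outside the 40 were described in the same way. Of 24 other hydrolases tested out of 25, 17 had a value below 0 (median −0.12), beside 48.9% of all genes tested. Without overlap 6 were lower (25%) and 2 higher (8.33%), beside 8.33% and 9.62% of all genes. At an unadjusted edgeR p below 0.05, 3 were lower and 0 higher, beside 4.23% and 8.25% of all genes. Among these 3 were Hyal2, a hyaluronidase (−0.68 ± 0.24), and Dpp7, a dipeptidyl peptidase (−0.67 ± 0.24). Of 20 other lysosomal membrane proteins, 16 were below 0 (median −0.20). Without overlap 5 were lower (25%) and 1 higher (5%), beside 8.33% and 9.62% of all genes. The gene furthest above 0 was Cd63, a tetraspanin of late endosomes and lysosomes, with 79.0, 88.8 and 46.4 CPM in young ECs and 148, 108 and 252 at 127, 131 and 136 weeks. All aged samples were above all young ones, and the order among the aged samples was that of Ctss and Ctsc (1.24 ± 0.36, edgeR adjusted p = 0.268). Slc38a9, an amino acid transporter that signals to mTORC1, was at −0.56 ± 0.18 and Tmem192 at −0.61 ± 0.22.

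Of 21 genes for sorting to lysosomes, 14 were below 0 (median −0.10) and 5 were lower without overlap (23.8%, beside 8.33% of all genes). Lower at an unadjusted edgeR p below 0.05 were 2 genes, beside 4.23% of all genes. These were Nagpa, the enzyme that uncovers the mannose 6-phosphate tag (−0.54 ± 0.20), and Ap1b1, a subunit of the clathrin adaptor AP-1 (−0.63 ± 0.24). Of 19 relatives and regulators of TFEB, 14 were below 0 (median −0.19). Rragb, a Rag GTPase, had 0.260, 0.451 and 0.158 CPM in young ECs and 0.756, 2.76 and 2.40 in aged ECs, and since it passed the filter through the aged samples alone its difference is not read as a result. Of 8 cathepsin inhibitors 4 passed the filter, and 3 of them were above 0 (median 0.34). Among these 3, Cst7 had 38 counts at 136 weeks and at most 5 in every other sample. It passed the filter through the 136-week sample alone, so its difference is not read as a result either. Cst6 was also low, at 11 to 30 counts in young ECs and 18 to 48 in aged ECs. Cst3, which encodes cystatin C, was the most abundant, at 995, 868 and 510.0 CPM in young ECs and 644, 897 and 711 in aged ECs, with no separation of the ages (−0.08 ± 0.28).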

How the data were processed

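Total RNA from CD31+CD45− liver ECs was sequenced as 75-base single-end reads in 3 young and 3 aged samples, grouped by the age in the labels. Per the methods and the submitters' processing notes, bases were called with CASAVA 1.8.2 and reads mapped to mm9 with TopHat 2.1.0. The authors deposited raw read counts, as whole numbers by gene symbol, and FPKM values made with Cuffnorm 2.2.1. The counting program, its annotation and its use of strand are not given in the sources used here.

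Genes with at least 0.5 CPM in at least 1 sample were kept, scaled with TMM factors (0.964 to 1.11) and compared by the quasi-likelihood test of edgeR 4.0.16 (R 4.3.3) with Benjamini-Hochberg adjustment over all 14612 genes and a threshold of 0.05. CPM values are TMM-scaled, apart from the floor of 3 counts. Standard errors (SE) were taken as |log2 fold change| over the root of the F statistic. P-values measure the spread between these samples only. Genes with values in every sample were those with an unadjusted p below 0.05, those without overlap, the 5 highest and 3 lowest by FPKM, and Tfeb, and a few more were named after their values were seen (Lgmn, Scarb2, Cd63, Rragb, Cst3, Ptprc, Lyz2, Stab2 and Lyve1 with all samples). Alternatives were DESeq2 1.42.0, limma 3.58.1 (voom, and log2 FPKM with a pseudocount of 0.1 or 1), other scalings and filters, a term for the library cluster, the removal of Lars2 and Rn45s, and leaving out each sample. The members and gene lists were chosen with earlier results of these data known. Of the marker lists, 1 of 14 macrophage symbols (Emr1, the older symbol of Adgre1) and 2 of 8 T and NK cell symbols were not tested. Gene positions are from the GENCODE annotation of mm9 and promoters from RefSeq on GRCm38.p6; the builds were not converted. Figures were drawn with matplotlib 3.10.9. No sample column was left unmapped. Other experiments of the study were not analysed here, and 1 gene of the other hydrolases is not reported here.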

Additional observations from a re-analysis of the deposited data

How the results depend on the processing

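No member or gene passed the adjusted threshold in edgeR with TMM, with DESeq2's size factors, with total counts, with a filter of 1 CPM in 3 samples, or without Lars2 and Rn45s. Genes called higher and lower were 484 and 155 by DESeq2 (1 member each, Ctsk and Ctsl), 13 and 2 by limma-voom, 3 and 1 without a filter, 1 and 1 on log2(FPKM + 0.1), 1 and 0 on log2(FPKM + 1), and 2 and 1 with the library cluster as a term. Leaving out 1 sample gave 0 to 1 higher and 0 to 0 lower. Members with an unadjusted p below 0.05 and higher numbered 1 under limma-voom, both FPKM scales and the cluster term, and 1 to 3 with a sample left out. Those lower numbered 2 to 11 with a sample left out: 11 without the 131-week sample, 2 without the 127-week sample or young replicate 2, and 3 without the 136-week sample or young replicate 1. Of all genes, 2.29% (without young replicate 2) to 6.05% (without the 131-week sample) were lower at such a p, and 5.06% to 10.6% higher. Members without overlap, left out in turn after the data were seen, numbered 9 to 21 lower, beside 10.9% to 16.0% of all genes, and 1 to 4 higher, beside 12.3% to 18.5%. The number of members above 0 ran from 9 to 13 and their median from −0.29 to −0.12 over all alternatives. Total counts alone moved the median of all genes to 0.075 and the share below 0 to 41.1%, with the members' median at −0.12. Of 640 comparisons of a member with an alternative, 14 changed sign, all in 7 members near 0. When single samples were dropped, their log2 values ran from −0.26 to 0.12 for Ctsf, from −0.12 to 0.062 for Gaa, from −0.014 to 0.28 for Gla, from −0.13 to 0.12 for Ids, from −0.030 to 0.41 for Arsb, from −0.41 to 0.16 for Galc and from −0.35 to 0.073 for Psap. Gaa was also above 0 with total counts (0.050) and with the 1 CPM filter (0.0033), and Arsb was below 0 by limma-voom (−0.040). The cause was not tested. Ctsk stayed between 0.93 and 1.505 and Ctsl between −1.16 and −0.76, with adjusted p from 0.0234 to 0.637 and 0.0128 to 0.637. Ctss and Ctsc ran from 0.59 without the 136-week sample to 2.12 and 2.18 without the 131-week sample. No paired analysis was possible because the ages share no replicate numbers in the labels. With 3 samples a group, most members did not reach an unadjusted p of 0.05 in the main edgeR fit. A p that misses the threshold does not show that the ages were alike.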
